A study of Mus musculus with 12 samples.

Results

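Ikaros deficiency was examined in follicular B cells after 3 h of antigen receptor stimulation, by setting the 2 arrays titled IkL/L anti-IgM 3h against the 2 titled WT anti-IgM 3h. These 4 arrays are part of a series of 12, with 6 groups of 2 arrays. The IkL/L group came from C57Bl/6 mice homozygous for the L alleles of Ikzf1, and the WT group from wild-type C57Bl/6 mice, all 6 weeks old. From both genotypes, B220-positive spleen cells with high CD23 and low CD21 were sorted to a purity above 98% and cultured for 3 h with goat F(ab')2 anti-mouse IgM at 10 µg/ml. The groups used beside them were IkL/L and WT cells cultured for 3 h without anti-IgM, and IkL/L and WT cells given the same anti-IgM for 12 h. Each gene was represented by 1 probe set, the one with the highest mean over the 12 arrays among those listed with a single gene symbol, which left 18193 genes. The series states 2 independent experiments, but does not say which replicates belong to which experiment.

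Ikaros, the product of Ikzf1, is a zinc finger protein that binds DNA and works with chromatin remodelling complexes such as NuRD, both repressing and activating genes. In B cells it is known for roles in lineage commitment and in setting how readily mature cells respond to their antigen receptor. The L alleles carry a lacZ insertion and are hypomorphic: they lower Ikaros rather than remove it, and they are present in every cell of the animal, so the cells also developed with them. Anti-IgM cross-links the B cell receptor (BCR), whose kinases start calcium, PI3 kinase and ERK signalling within minutes, followed by early gene induction and by the fall of many transcripts of resting cells.

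Values are log2 signals, and differences are IkL/L minus WT on that scale. A gene was called where limma's adjusted p was under 0.05. Signals under 4.21 were taken as near background, and a fold is given as "at least" where an array of the lower group was under it. The 4 arrays were alike in depth of detection, with 7559 and 7656 genes above this level in IkL/L cells and 7567 and 7620 in WT cells. Across genes, the IkL/L arrays correlated with r = 0.9942, the WT arrays with r = 0.9905, and arrays of different genotype with r from 0.9849 to 0.9906. WT replicate 1 stood apart in sex-linked transcripts. Xist had 3.38 and 3.19 in IkL/L and 10.21 and 3.35 in WT cells, and the Y-linked Eif2s3y had 8.52 and 8.58 in IkL/L and 2.55 and 8.38 in WT cells. Sex was thus mixed within WT only, and its part in the differences was not tested.

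Of the 7 measured markers of B cells, 0 were near background on all 4 arrays, and their summed linear signal was 3865 and 3437 in IkL/L cells, against 5488 and 6600 in WT cells. Markers of T cells, NK cells and macrophages were mostly near background on all 4 arrays: 8 of 9 for T cells, 6 of 6 for NK cells and 7 of 9 for macrophages. Cd68, a lysosomal glycoprotein of macrophages, was the 1 call in that list, with 5.32 and 5.46 in IkL/L cells and 4.24 and 4.13 in WT cells (1.20, limma adjusted p = 0.024). The macrophage markers summed to 116 and 127 in IkL/L and 91.3 and 95.1 in WT cells, and without Cd68 to 76.3 and 82.8 in IkL/L and 72.4 and 77.6 in WT cells. Neutrophil markers varied within each genotype, with sums of 156 and 425 in IkL/L and 80.95 and 267 in WT cells, and 4 of 9 near background on all 4 arrays. Dendritic cell markers summed to 164 and 203 in IkL/L and to 99.95 and 84.45 in WT cells, with 4 of 6 near background on all 4 arrays. Plasma cell markers summed to 4556 and 5240 in IkL/L and to 4583 and 4602 in WT cells. Of these 7, 2 were near background on all 4 arrays. Among them Prdm1 was called lower (-1.795), while Jchain had the highest difference (1.44) and was not past the threshold. Marginal zone and B1 cell markers summed to 1231 and 1316 in IkL/L cells, against 993 and 970 in WT cells. Cd9 carried that difference, since the sum of the other 9 was 915.5 and 915.7 in IkL/L and 929 and 919 in WT cells. In sorted populations, fewer cells of a type and less RNA per cell cannot be told apart, and the part of these markers in the results was not tested.

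Ikzf1 itself had 8.58 and 8.08 in IkL/L cells and 8.93 and 9.10 in WT cells at 3 h. The groups did not overlap, but the difference of -0.68 (95% interval -1.17 to -0.20) was not past the threshold (limma adjusted p = 0.193). The position of its probe set relative to the insertion was not known here, and the value therefore does not check the genotype.

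At 3 h of anti-IgM, 310 of 18193 genes (1.70%) differed between IkL/L and WT cells. Of these, 152 were higher (0.835%) and 158 lower (0.868%) in IkL/L cells, and 82 of the higher and 97 of the lower differed at least 2-fold. Counts of called members in the gene lists below are to be read beside these shares of 0.835% and 0.868%. The median difference over all genes was -0.02. By fitted log2 difference, the cytokine Lif, the amyloid precursor App, the small adaptor Bex1 and the tetraspanin Cd9 were at the high end. Lif and App were near background in both WT arrays and Bex1 in 1, so that their true order is not known, and the bounds were at least 5.40-fold for Lif, at least 6.59-fold for App and at least 6.93-fold for Bex1, beside a measured 6.21-fold for Cd9. The lowest were the membrane protein Ms4a6c, the nucleotide hydrolase Samhd1 and the Fc receptor-like protein Fcrla. For all 310 the 2 groups of arrays did not overlap, but this held for 8187 (45.0%) of the genes tested. Of the called genes, 17 were near background in both groups and 11 lie on the X or Y chromosome.

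The count rested strongly on single arrays. It was 33 without IkL/L replicate 2 at 3 h, 166 without IkL/L replicate 1, 40 without WT replicate 2 and 134 without WT replicate 1. Leaving out either unstimulated WT array gave 203. Without WT replicate 1 in all conditions, the one set apart by sex-linked transcripts, 109 genes were called, 51 higher and 58 lower. Of the 62 named genes that were called, 27 kept their call without that replicate and 35 lost it. Among the 35 were S1pr1 (limma adjusted p = 0.0518), Btk (0.0574), Cd79b (0.0655), Rasd1 (0.0684), Plac8 (0.0916) and Spry2 (0.0916). Without WT replicate 2 in all conditions 7 of the 62 were kept, without IkL/L replicate 1 40 and without IkL/L replicate 2 21. With a term for the replicate number within each genotype, 935 genes were called, 471 higher and 464 lower. That term leaves the difference between replicate numbers out of the error. No label says that arrays of the same number share a source of cells.

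**Figure D1:**
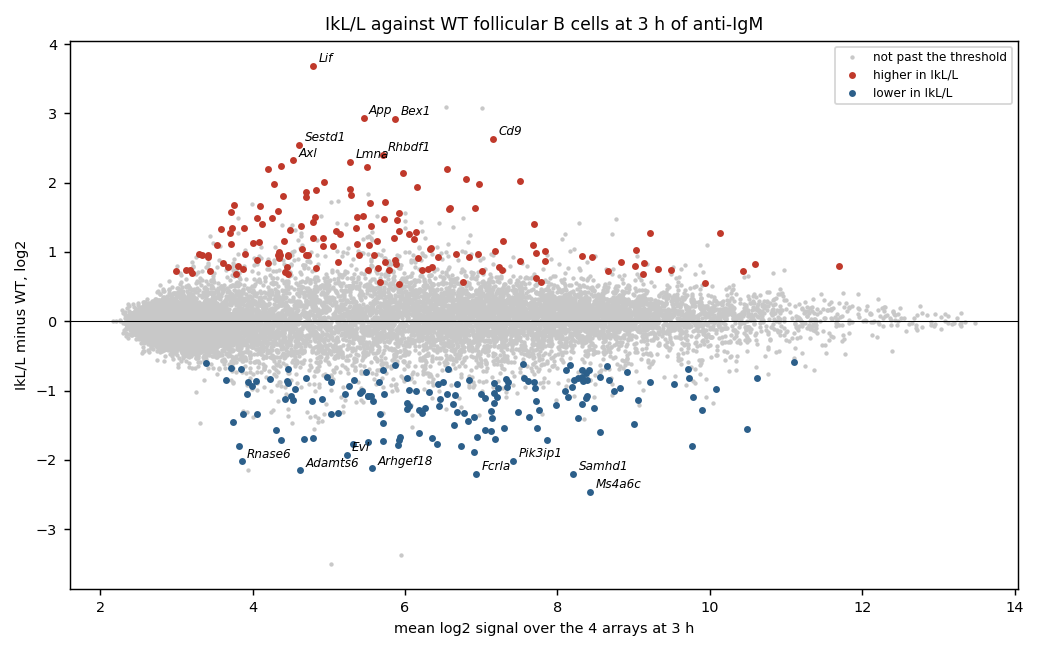
Difference between IkL/L and WT cells at 3 h of anti-IgM (vertical axis, log2) against the mean log2 signal of the 4 arrays (horizontal axis), 1 point per gene. Red points are the 152 called genes higher in IkL/L, blue points the 158 lower and grey points the rest, and the 8 largest rises and falls among the called genes carry their names.

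**Figure D2:**
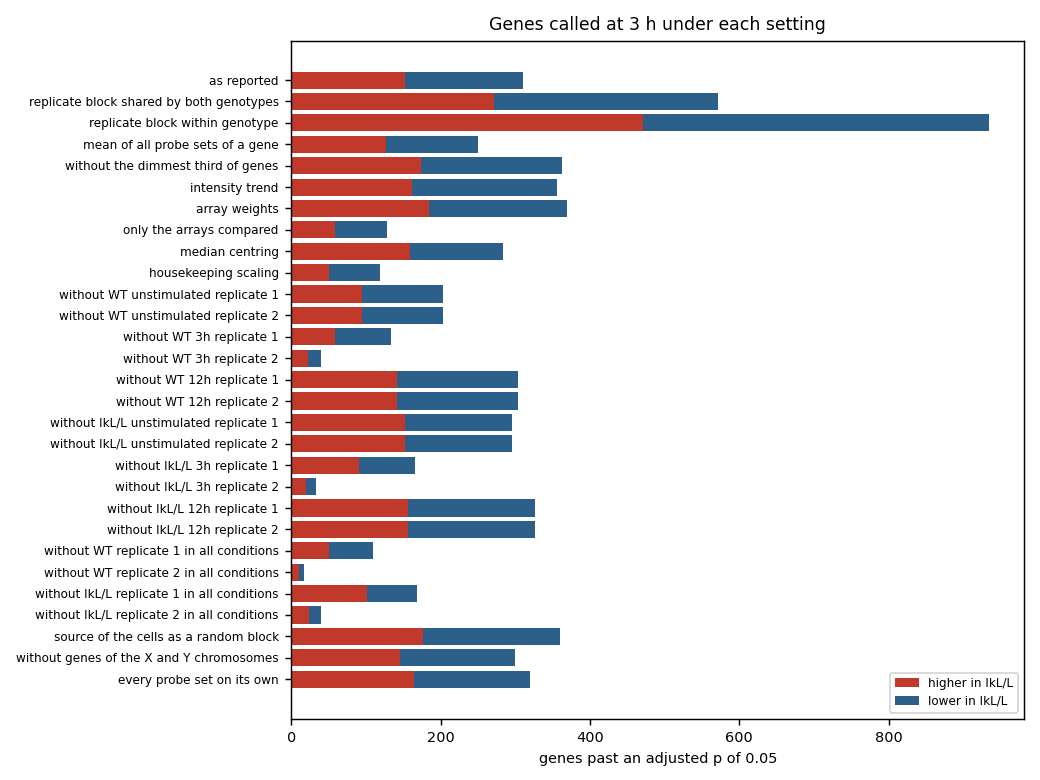
Number of genes called at 3 h (horizontal axis) under each setting, split into higher (red) and lower (blue) in IkL/L. The shortest bar is that without WT replicate 2 in all conditions. The longest has 935 genes, with the replicate number as a block within genotype, beside 310 as reported.

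Across the 27 alternative settings that give 1 value per gene, 7 genes kept their call in each. Of these, 5 belong to the rule by which genes are named here: Axl, Klf4, Sestd1 and Rhbdf1, which were higher, and Il16, which was lower. Lgalsl and Poglut2, named after their values were seen, were the other two, both higher. With each of the 12 arrays left out singly, 27 genes kept their call, 17 higher and 10 lower.

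Axl, a receptor tyrosine kinase for Gas6 with a role in clearing dying cells, had 5.59 and 5.80 in IkL/L cells and 3.46 and 3.28 in WT cells. It was near background in both WT arrays and at least 2.81-fold higher in IkL/L cells (2.33, SE 0.16, limma adjusted p = 0.000382). With single arrays left out, its adjusted p lay between 0.000195 and 0.00924.

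Klf4, a Krüppel-like factor that restrains proliferation in B cells, had 6.71 and 6.52 in IkL/L cells and 4.27 and 4.50 in WT cells. It was 4.67-fold higher in IkL/L cells (2.22, SE 0.16, limma adjusted p = 0.000594). WT cells thus held it just above background while IkL/L cells held it clearly above.

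Sestd1, a phospholipid-binding protein with a SEC14 domain, had 5.98 and 5.79 in IkL/L cells and 3.37 and 3.31 in WT cells. Rhbdf1, an inactive rhomboid protein that helps traffic the sheddase ADAM17, had 6.80 and 7.02 in IkL/L cells and 4.70 and 4.31 in WT cells. Sestd1 was at least 3.21-fold higher (2.55, SE 0.17) and Rhbdf1 5.30-fold higher (2.41, SE 0.22), and the replicates of each genotype lay close together beside these differences.

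Il16, the precursor of a cytokine that attracts CD4-positive cells, had 6.19 and 6.03 in IkL/L cells and 7.67 and 7.90 in WT cells. It was lower in IkL/L cells in both replicates, with 3.20-fold more signal in WT (-1.68, SE 0.13, limma adjusted p = 0.000785). A second Il16 probe set had means of 4.05 in IkL/L and 5.61 in WT cells, a difference of -1.56.

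The promoters of Lif, the gene with the highest fitted difference, and of the 4 of these 5 genes with an entry in the RefSeq promoter table (GRCm38.p6) are shown because they are the loci with that difference or with calls kept under each of those settings. Each window runs from 250 bases before to 50 bases after the annotated start, 5′ to 3′ on the gene's strand. Capitals mark GGGAA or its reverse complement TTCCC, the core of the motif that Ikaros family proteins bind. For Il16, which has 3 such windows, the first is given.

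Lif (chr11:4257318-4257617, plus strand): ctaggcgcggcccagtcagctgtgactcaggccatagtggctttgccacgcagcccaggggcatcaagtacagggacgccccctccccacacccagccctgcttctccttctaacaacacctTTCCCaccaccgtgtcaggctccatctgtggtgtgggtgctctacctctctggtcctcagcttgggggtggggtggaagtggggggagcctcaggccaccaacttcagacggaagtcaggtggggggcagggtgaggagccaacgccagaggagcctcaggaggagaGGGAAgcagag

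Axl (chr7:25788684-25788983, minus strand): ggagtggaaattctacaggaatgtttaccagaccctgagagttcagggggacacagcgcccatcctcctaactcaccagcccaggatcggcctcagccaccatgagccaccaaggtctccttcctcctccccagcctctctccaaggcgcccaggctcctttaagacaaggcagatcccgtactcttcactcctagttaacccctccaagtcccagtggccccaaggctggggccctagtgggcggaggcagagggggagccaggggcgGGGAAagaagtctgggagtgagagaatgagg

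Klf4 (chr4:55532426-55532725, minus strand): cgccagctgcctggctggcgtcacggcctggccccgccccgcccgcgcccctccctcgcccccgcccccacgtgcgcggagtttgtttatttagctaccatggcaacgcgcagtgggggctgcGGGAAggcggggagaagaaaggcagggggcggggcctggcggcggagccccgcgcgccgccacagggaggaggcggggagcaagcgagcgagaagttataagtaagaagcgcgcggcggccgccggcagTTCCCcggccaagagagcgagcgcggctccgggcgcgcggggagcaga

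Sestd1 (chr2:77280543-77280842, minus strand): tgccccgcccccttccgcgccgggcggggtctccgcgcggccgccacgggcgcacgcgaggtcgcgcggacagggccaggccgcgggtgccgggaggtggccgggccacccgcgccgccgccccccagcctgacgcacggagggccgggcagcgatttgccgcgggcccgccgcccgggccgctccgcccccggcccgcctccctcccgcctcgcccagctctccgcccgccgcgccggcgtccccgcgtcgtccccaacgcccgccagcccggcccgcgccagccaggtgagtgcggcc

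Il16 (chr7:83735490-83735789, minus strand): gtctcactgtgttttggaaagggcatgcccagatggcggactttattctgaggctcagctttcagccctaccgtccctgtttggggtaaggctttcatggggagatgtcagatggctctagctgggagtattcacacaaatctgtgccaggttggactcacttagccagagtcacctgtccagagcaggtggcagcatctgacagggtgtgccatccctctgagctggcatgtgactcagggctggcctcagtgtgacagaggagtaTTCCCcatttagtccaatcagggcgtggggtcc

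The Lif window holds GGGAA or TTCCC at 2 places, 1 of them within the longer form TGGGAA or TTCCCA. The Klf4 window holds the shorter form at 2 places, the Axl and Il16 windows at 1 each and the Sestd1 window at 0. On both strands, the shorter form occurs in 62.3% of 27025 promoter windows of the same length, in 80 of 132 (60.6%) for genes higher in IkL/L and in 81 of 122 (66.4%) for genes lower. The longer form, which contains the shorter, occurs in 25.5% of the windows, in 36 of 132 (27.3%) for higher and in 26 of 122 (21.3%) for lower genes. These shares are near those of promoters at large, and a match describes the letters only.

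Among the secreted factors, Lif was called higher. Lif, a cytokine of the interleukin-6 family, had 6.49 and 6.78 in IkL/L cells and 3.12 and 2.77 in WT cells, where it was near background. It was at least 5.40-fold higher in IkL/L cells (3.69, SE 0.36, limma adjusted p = 0.00138). Its adjusted p with single 3 h arrays left out reached 0.0256, and it was 0.0837 without WT replicate 2 in all conditions.

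Of 20 secreted chemokines and cytokines, 2 were called higher and 1 lower, beside 0.835% higher and 0.868% lower among all genes. The median difference was 0.40 against -0.02 for all genes. Besides Lif and Il16, Lta (lymphotoxin alpha) was called, with 4.86 and 5.43 in IkL/L and 3.89 and 3.76 in WT cells (1.31, limma adjusted p = 0.0237). Without IkL/L replicate 2, WT replicate 1 or WT replicate 2 at 3 h, 2 of these 3 calls were kept. The inflammatory chemokines Ccl3 and Ccl4 were not past the threshold. Ccl3 had 8.97 and 10.05 in IkL/L and 8.58 and 7.47 in WT cells, a wide spread within each genotype (1.48, limma adjusted p = 0.281).

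Several membrane proteins were higher in IkL/L cells. Cd9, a tetraspanin found on marginal zone, B1 and plasma cells, had 8.30 and 8.64 in IkL/L cells and 6.00 and 5.67 in WT cells. It was 6.21-fold higher (2.63, SE 0.24, limma adjusted p = 0.00109), and the call was lost in 1 of the 27 alternatives, when WT replicate 2 was dropped from all 3 conditions (p then 0.0742 after adjustment). App had 6.89 and 6.96 in IkL/L cells and 4.04 and 3.93 in WT cells, at least 6.59-fold higher (2.94, SE 0.25).

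Cd36, a scavenger receptor for lipids, had 5.10 and 5.90 in IkL/L cells and 3.34 and 3.16 in WT cells (2.25). Havcr1, known as TIM-1 and as a marker of regulatory B cells, had 8.34 and 8.71 in IkL/L cells and 6.30 and 6.70 in WT cells, 4.08-fold higher (2.03, SE 0.28, limma adjusted p = 0.00843). It was the 1 call among 21 activation and costimulation proteins, and lost it without IkL/L replicate 2 or WT replicate 1 at 3 h. Cd69 and Cd86, which mark B cell activation, had differences of -0.18 (95% interval -0.91 to 0.55) and 0.21 (-0.39 to 0.81).

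Pdcd1, the inhibitory receptor PD-1, had 5.02 and 5.54 in IkL/L cells and 3.27 and 3.32 in WT cells, at least 2.10-fold higher (1.98, SE 0.24, limma adjusted p = 0.0054). Tnfrsf21 (death receptor 6) had 5.55 and 5.63 in IkL/L cells and 4.79 and 4.22 in WT cells (1.09, limma adjusted p = 0.0173). Pdcd1 was thus above background in IkL/L cells and below it in WT cells, while Tnfrsf21 was above it in both.

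The other large rises had various roles. Bex1 had 7.09 and 7.58 in IkL/L cells and 3.95 and 4.88 in WT cells (2.92, SE 0.42). Rasd1, a Ras-like GTPase, had 7.44 and 7.85 in IkL/L cells and 5.23 and 5.66 in WT cells (2.20, SE 0.25). Lmna, which encodes the nuclear lamins A and C, the tight junction protein Cldn12, the zinc finger protein Plagl1 and the scaffold Mpp7 rose by between 2.05 and 2.30. Of the 15 largest rises, 15 kept their call without IkL/L replicate 1 at 3 h, 8 without IkL/L replicate 2, 11 without WT replicate 1 and 11 without WT replicate 2.

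**Figure D3:**
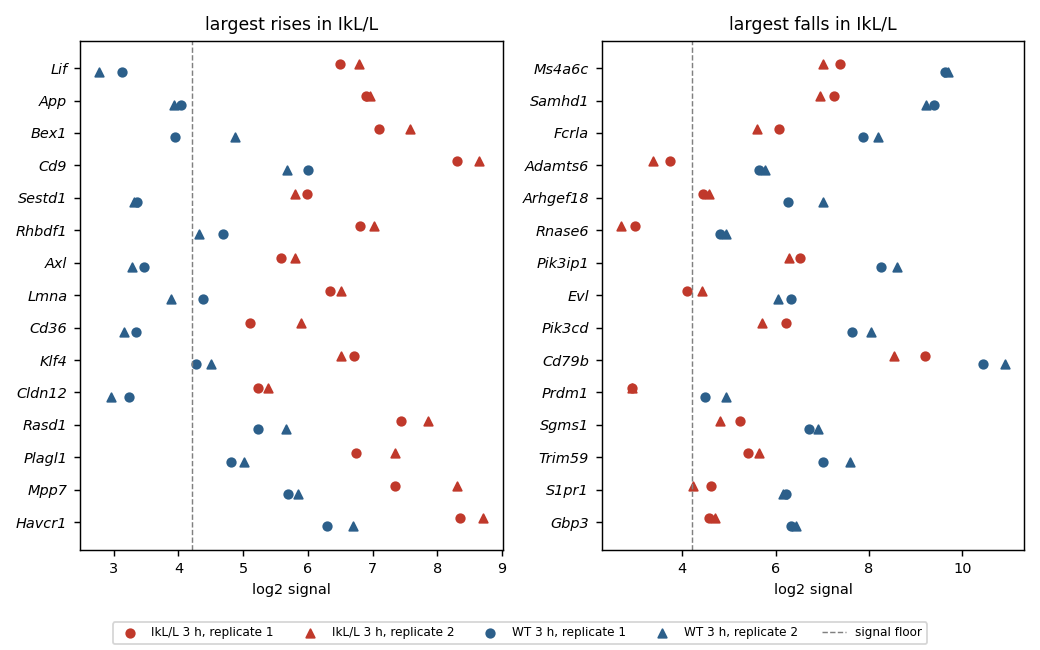
Log2 signal (horizontal axis) on the 4 arrays at 3 h for the 15 largest rises (left) and the 15 largest falls (right) among called genes. Red marks are IkL/L and blue marks WT, circles replicate 1 and triangles replicate 2, and the dashed line is the level of 4.21 under which signals are near background. Several WT values of the left panel, Lif among them, lie under that line, and so do IkL/L values in the right panel, those of Adamts6, Rnase6 and Prdm1 among them.

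Components of the B cell receptor pathway were lower in IkL/L cells where they were called. Of 27 measured receptor chains, kinases and adaptors, 13 were lower and 2 higher at an unadjusted p under 0.05 in limma. Among all genes 6.71% were lower (1221) and 6.01% higher (1093). Of the 27, 25 were above 4.21 in a 3 h group, against 7828 of all 18193 genes, so these shares are not matched for signal. The median was -0.40 against -0.02 for all genes. Past the threshold, where 0.868% of all genes were lower and 0.835% higher, 5 of the 27 were lower and 0 higher. This count moved with the arrays: 2 were lower without WT replicate 1 or without IkL/L replicate 1 at 3 h, and 0 without WT replicate 2 or without IkL/L replicate 2. The lower sum of the B cell markers in IkL/L cells, given above, moves in the same direction. That list shares Cd79a, Cd79b and Blk with this one, and without the 3 the sum was 1918 and 1797 in IkL/L cells, against 2258 and 2507 in WT cells. Its part here was not tested.

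Cd79b, the signalling chain Igβ, had 9.21 and 8.54 in IkL/L cells and 10.43 and 10.92 in WT cells. It was 3.48-fold lower in IkL/L cells (-1.80, SE 0.25, limma adjusted p = 0.00973). Its partner Cd79a had 7.97 and 7.40 in IkL/L and 8.65 and 8.87 in WT cells, with groups that did not overlap but an adjusted p of 0.0713 in limma.

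Syk, the kinase that docks on the receptor's phosphorylated tails, had 6.32 and 6.21 in IkL/L cells and 7.43 and 8.23 in WT cells. It was 2.96-fold lower (-1.57, SE 0.28, limma adjusted p = 0.0274), with more spread between the WT arrays than between the IkL/L arrays. Btk, the kinase upstream of phospholipase C, had 7.28 and 7.0 in IkL/L cells and 8.31 and 8.28 in WT cells (-1.15, limma adjusted p = 0.0102). The adaptors Themis2 (-0.996) and Bank1 (-0.96) were the other two called.

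The adaptor Blnk (-0.62, limma adjusted p = 0.0709), the phospholipase Plcg2 (-0.77, 0.0602) and the kinase Prkcd (-0.91, 0.0807) were not past the threshold. Gab2 (1.27, limma adjusted p = 0.105) and Malt1 (0.94, 0.135) had differences of the other sign, also not past it. Cd22, an inhibitory co-receptor, had 8.13 and 7.89 in IkL/L and 8.81 and 8.89 in WT cells (-0.84, limma adjusted p = 0.163). The call of Fcgr2b, the inhibitory Fc receptor, was likewise not made (-0.26, 95% interval -0.55 to 0.04).

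Among inhibitory receptors, phosphatases and adaptors, 1 of 24 was higher (Pdcd1) and 1 lower. The lower was Dok3, an adaptor that restrains BCR calcium signalling, with 5.59 and 5.18 in IkL/L cells and 6.96 and 7.02 in WT cells (-1.61, SE 0.25, limma adjusted p = 0.0169). Both calls were kept without IkL/L replicate 1 at 3 h, 1 without WT replicate 1, and 0 without IkL/L replicate 2 or WT replicate 2.

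Both called members of the PI3 kinase list were lower, among 15 measured. Pik3ip1, an inhibitor of PI3 kinase that resting lymphocytes express, had 6.53 and 6.29 in IkL/L cells and 8.25 and 8.59 in WT cells. Pik3cd, the catalytic subunit p110δ, had 6.22 and 5.71 in IkL/L cells and 7.63 and 8.05 in WT cells. Another Pik3cd probe set of similar brightness in IkL/L cells barely differed, with means of 6.29 in IkL/L and 6.36 in WT cells (-0.07). Pik3ip1 was 4.04-fold lower (-2.02, SE 0.19, limma adjusted p = 0.00121) and Pik3cd 3.68-fold lower (-1.88, SE 0.22, limma adjusted p = 0.00365). On the probe sets used, an inhibitor and a catalytic subunit thus moved the same way. Each kept its call with any single array left out. Without WT replicate 2 in all conditions neither was called (limma adjusted p = 0.0742 for Pik3ip1 and 0.0903 for Pik3cd), and Pik3cd was not called without IkL/L replicate 2 in all conditions (0.0829).

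Rasa3, a GTPase-activating protein for Ras and Rap, was the 1 call among 16 Ras and Rap regulators, with 5.77 and 6.29 in IkL/L cells and 7.15 and 7.54 in WT cells (-1.32, limma adjusted p = 0.0219). With single arrays at 3 h left out, it was called without WT replicate 1 and not without WT replicate 2, IkL/L replicate 1 or IkL/L replicate 2. Of 22 calcium entry, calcineurin and NFAT genes, Ppp3ca, the calcineurin catalytic subunit (-1.26), and the transcription factor Nfatc3 (-0.80) were lower. Without either IkL/L array at 3 h, 0 of these 2 calls were kept, and without either WT array 1 was kept.

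Inhibitors of receptor and MAP kinase signalling, in a list of ERK feedback genes, were higher where they were called, but the ERK phosphatases among them were not called. Of 13 measured dual-specificity phosphatases, Sprouty and Spred proteins and related inhibitors, 7 were higher and 0 lower at an unadjusted p under 0.05 in limma. Among all genes 6.01% were higher and 6.71% lower. Of the 13, 10 were above 4.21 in a 3 h group, against 7828 of all 18193 genes, so these shares are not matched for signal. The median was 0.51 against -0.02 for all genes. Past the threshold, 3 of the 13 were higher and 0 lower. Without WT replicate 2 at 3 h 0 of them were called, without IkL/L replicate 2 only 1, and without WT replicate 1 in all conditions 0.

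Spry2, an inhibitor of receptor-to-ERK signalling, had 5.46 and 6.04 in IkL/L cells and 4.46 and 4.42 in WT cells, 2.47-fold higher (1.30, SE 0.17, limma adjusted p = 0.00807). Dusp10, a phosphatase of p38 and JNK, had 4.30 and 4.82 in IkL/L cells and 3.24 and 3.20 in WT cells, at least 1.28-fold higher (1.34, limma adjusted p = 0.00843). Errfi1, an inhibitor of EGF receptor family kinases, had 5.41 and 6.15 in IkL/L cells and 4.62 and 4.43 in WT cells (1.26, limma adjusted p = 0.0395). IkL/L replicate 2 was the higher of its pair for each of the 3.

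Spry1 had 5.57 and 6.39 in IkL/L cells and 4.19 and 4.31 in WT cells, a larger difference than Spry2 but not past the threshold (1.73, SE 0.49, limma adjusted p = 0.135). The ERK phosphatases Dusp4 (-0.15) and Dusp6 (-0.20) had differences of the other sign, and Dusp6 was near background on all 4 arrays.

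Receptors and adhesion molecules that guide B cell traffic were lower where called. Of 22 chemokine receptors, S1P receptors and homing molecules, 4 were lower and 0 higher, beside 0.868% lower and 0.835% higher among all genes. The list had a median of -0.09. S1pr1, the receptor by which lymphocytes leave lymphoid organs, had 4.63 and 4.23 in IkL/L cells and 6.23 and 6.16 in WT cells. It was 3.40-fold lower (-1.77, SE 0.18, limma adjusted p = 0.00199) and kept its call with any single array left out, but not without WT replicate 1 (0.0518) or WT replicate 2 (0.0849) in all conditions.

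The integrin chains Itga4 (-1.25, limma adjusted p = 0.0289), Itga6 (-0.89, 0.0172) and Itgb7 (-0.81, 0.0497) were the other 3. Itga4 had 5.62 and 5.67 in IkL/L cells and 7.02 and 6.76 in WT cells, and Itga4 and Itgb7 together form the integrin that directs cells to the gut. Of the 4 calls, 1 was kept without IkL/L replicate 2, WT replicate 1 or WT replicate 2 at 3 h and 2 without IkL/L replicate 1. The chemokine receptors Ccr7 (0.06), Cxcr4 (0.08) and Cxcr5 (0.10) were not past the threshold. In the cytokine receptor list, Tgfbr2, a chain of the TGF-β receptor, was lower (-0.81, limma adjusted p = 0.0289) and 0 were higher of 23. The Tgfbr2 call was lost when any of the 4 arrays at 3 h was left out, with adjusted p up to 0.252.

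Genes of survival and death moved both ways. Bcl2l2 (BCL-W), a survival protein, had 5.47 and 5.68 in IkL/L cells and 4.19 and 3.95 in WT cells, at least 2.58-fold higher (1.50, SE 0.13, limma adjusted p = 0.00109). Bmf, a BH3-only death protein, had 4.99 and 5.20 in IkL/L cells and 6.53 and 7.02 in WT cells, 3.20-fold lower (-1.68, SE 0.22, limma adjusted p = 0.00807). Pmaip1 (Noxa), another BH3-only protein, was higher (1.35, limma adjusted p = 0.0284). The 3 calls among 14 members, beside 1.70% called among all genes, thus included death proteins in both directions. Without IkL/L replicate 2 or WT replicate 2 at 3 h, 1 of the 3 was called.

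Of 23 quiescence, FOXO and Krüppel-like factors, 1 was higher (Klf4) and 2 lower, beside 0.835% higher and 0.868% lower among all genes. Ccng2, a cyclin that FOXO proteins induce in resting cells, had 5.21 and 5.82 in IkL/L cells and 6.95 and 7.43 in WT cells (-1.68, SE 0.30, limma adjusted p = 0.0254). The lysosomal trafficking regulator Lyst was lower by a smaller amount (-0.94, limma adjusted p = 0.0469). Neither of the 2 was called when any of the 4 arrays at 3 h was left out. Among 26 genes of the Myc network and of cell cycle entry, Ccnd3 (cyclin D3) was the 1 call, lower (-0.88, limma adjusted p = 0.024), and it too was lost without any 1 of those arrays.

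Myc, with 11.31 and 11.49 in IkL/L cells and 11.61 and 11.16 in WT cells, had a difference of 0.01 (95% interval -0.55 to 0.57). Ccnd2 (cyclin D2) had 0.10 (-0.58 to 0.79) and Cdkn1b (p27) -0.15 (-0.73 to 0.42). None of these 3 was past the threshold in limma, and the intervals include differences of either sign.

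Regulators of B cell identity also included calls in both directions, 1 higher and 1 lower of 22. Prdm1 (Blimp-1), which drives plasma cell formation, had 2.92 and 2.92 in IkL/L cells and 4.50 and 4.93 in WT cells. It was near background in both IkL/L arrays and at least 1.42-fold lower there (-1.79, SE 0.22, limma adjusted p = 0.00479). Id2, an inhibitor of E proteins, had 7.66 and 7.80 in IkL/L cells and 6.13 and 6.07 in WT cells, 3.10-fold higher (1.63, SE 0.27, limma adjusted p = 0.0198). Without IkL/L replicate 2 or WT replicate 2 at 3 h, 0 of these 2 were called.

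Among 19 markers of B cell subsets, Cd9 was higher and Cd93 (-1.72), Plac8 (-1.56) and S1pr1 were lower. Among all genes 0.835% were higher and 0.868% lower. Plac8, abundant in mature B cells, had 9.93 and 9.51 in IkL/L cells and 11.19 and 11.36 in WT cells (limma adjusted p = 0.00967). Cd93, an early B lineage and transitional marker, had 3.59 and 3.42 in IkL/L cells and 4.86 and 5.60 in WT cells. Of the 4 calls, 2 were kept without IkL/L replicate 2 or WT replicate 2 at 3 h and 3 without IkL/L replicate 1 or WT replicate 1. Cd9 was also the 1 call among 10 markers of marginal zone and B1 cells.

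The largest falls outside these lists were Ms4a6c, Samhd1 and Fcrla. Samhd1, which degrades deoxynucleotides, had 7.25 and 6.96 in IkL/L cells and 9.40 and 9.21 in WT cells, 4.60-fold lower (-2.20, SE 0.24, limma adjusted p = 0.00283). Fcrla, an intracellular Fc receptor-like protein of B cells, had 6.07 and 5.59 in IkL/L cells and 7.87 and 8.19 in WT cells, 4.59-fold lower (-2.20, SE 0.26). Ms4a6c had 7.38 and 7.02 in IkL/L cells and 9.62 and 9.69 in WT cells (-2.46, SE 0.28), but its other probe set went the opposite way.

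The remaining falls included the metalloprotease Adamts6 (-2.15), the guanine nucleotide exchange factor Arhgef18 (-2.12), the ribonuclease Rnase6 (-2.02), the actin regulator Evl (-1.93) and the sphingomyelin synthase Sgms1 (-1.78). Trim59, a ubiquitin ligase (-1.77), and the guanylate-binding protein Gbp3 (-1.74) completed the 15 largest. Of these 15, 14 kept their call without IkL/L replicate 1 at 3 h, 6 without IkL/L replicate 2, 13 without WT replicate 1 and 7 without WT replicate 2.

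In several lists 0 members were called by limma, and their counts at an unadjusted p are to be read beside 6.01% higher and 6.71% lower among all genes. Those shares include genes near background, since 7828 of 18193 were above 4.21 in a 3 h group. Of 24 immediate early and AP-1 factors, 5 were higher and 1 lower at an unadjusted p under 0.05, with a median of 0.21. Egr1 had 10.23 and 10.52 in IkL/L and 10.42 and 10.74 in WT cells (-0.20, SE 0.36), and Fosl1 5.94 and 6.92 in IkL/L and 4.36 and 4.83 in WT cells (1.83, SE 0.51, limma adjusted p = 0.135). In the Ikaros family, 0 of 5 were called, with 1 lower at an unadjusted p under 0.05 (Ikzf1). Ikzf3 (Aiolos), the close relative of Ikaros in B cells, had 6.62 and 6.56 in IkL/L and 6.29 and 6.80 in WT cells (0.04, 95% interval -0.38 to 0.46).

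Of 22 NuRD and Polycomb partners, 1 was higher and 2 lower at an unadjusted p under 0.05 in limma, and of 17 NF-κB genes 1 and 2, with 0 called in either list. Ribosome biogenesis (0 of 32 called by limma, 1 higher and 0 lower unadjusted) had a median of 0.21, and DNA replication (0 of 29, 3 higher and 1 lower unadjusted) one of 0.13. Mitosis genes (0 of 19 by limma, 0 higher and 1 lower unadjusted) had a median of 0.01, but only 4 of the 19 were above 4.21 in a 3 h group. Sterol synthesis (0 of 20 by limma, 0 higher and 4 lower unadjusted) had a median of -0.19.

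Glycolysis (0 of 17 called by limma, 2 higher and 1 lower unadjusted) and amino acid supply (0 of 21, 1 higher and 1 lower unadjusted) had medians of -0.01 and 0.18. Type I interferon genes (0 of 21 called by limma, 0 higher and 1 lower unadjusted), Notch genes (0 of 17, 1 higher and 3 lower unadjusted) and MHC class II genes (0 of 13, 0 higher and 1 lower unadjusted) had medians of 0.01, 0.01 and -0.06. Among 20 Toll-like receptor and nucleic acid sensing genes, the trafficking factor Unc93b1 was lower (-0.83, limma adjusted p = 0.0423), a call lost without any 1 of the 4 arrays at 3 h. The RNA sensor Ifih1 had 7.70 and 8.48 in IkL/L cells and 6.51 and 3.48 in WT cells, so its difference of 3.09 (SE 0.86) came with WT arrays that lay far apart and was not past the threshold (limma adjusted p = 0.133).

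**Figure D4:**
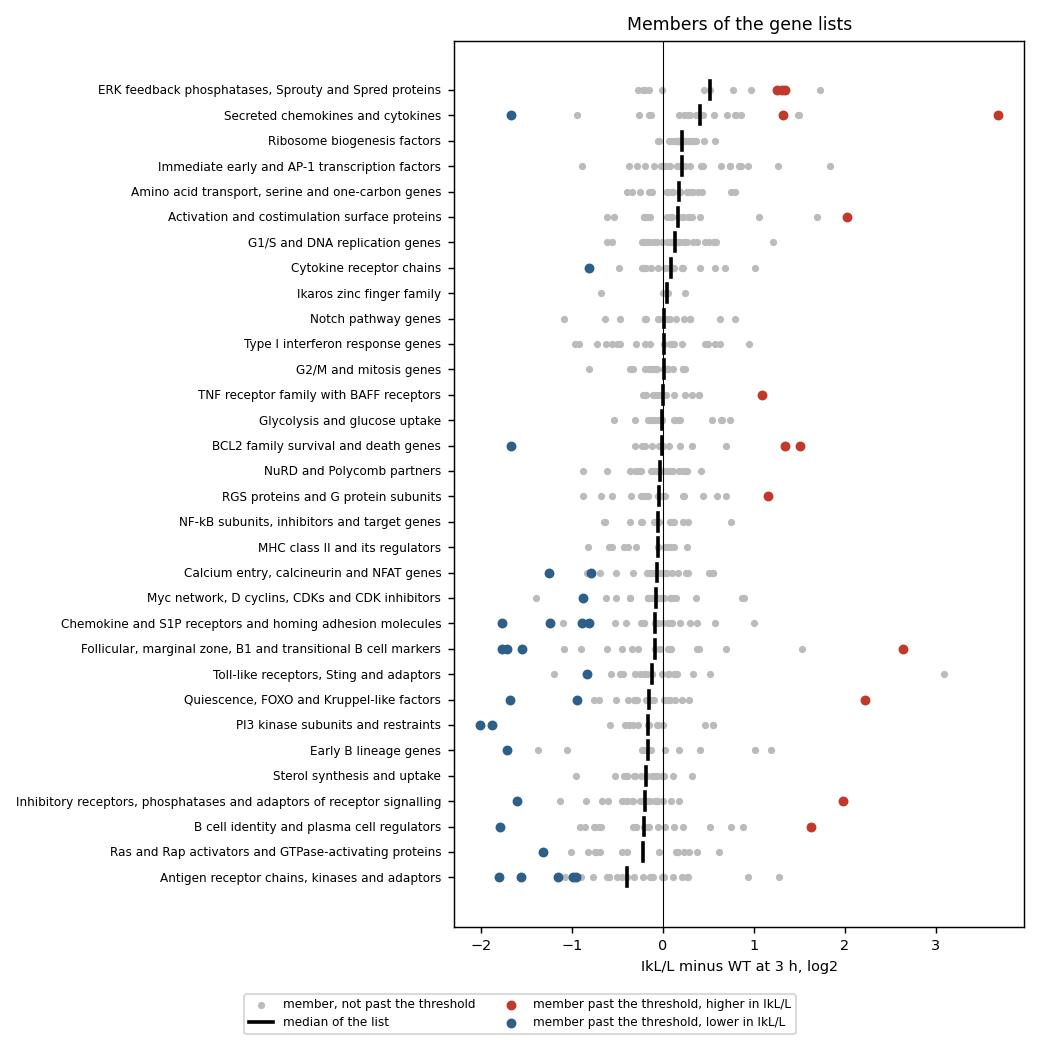
Differences between IkL/L and WT cells at 3 h (horizontal axis, log2) for the members of each gene list (rows, cell type markers not drawn), with a bar at the list's median. Coloured points are members past the threshold, red if higher and blue if lower in IkL/L. Among the lists drawn, the antigen receptor list has the lowest median (-0.40) with 5 blue points, and the ERK feedback list the highest (0.51) with 3 red points.

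The question of whether these differences were already present without stimulus, or were still present at 12 h, was addressed with the other arrays of the same genotypes. Without stimulus 205 genes (1.13%) differed between IkL/L and WT cells, 108 higher (0.594%) and 97 lower (0.533%). At 12 h 112 genes (0.616%) differed, 82 higher (0.451%) and 30 lower (0.165%). Of the 310 genes called at 3 h, 64 were also called in the same direction without stimulus, which is 20.6% of the 310 and 31.2% of the 205, and 0 in the opposite direction. At 12 h, 45 were called in the same direction, 14.5% of the 310 and 40.2% of the 112. These comparisons use different arrays, but cells of one source may supply several of them, and the 3 comparisons share 1 estimate of spread.

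Cd9 and Rhbdf1 differed in each of the 3 conditions. Cd9 had differences of 2.05 without stimulus, 2.63 at 3 h and 2.52 at 12 h, each past the threshold (limma adjusted p = 0.00426, 0.00109 and 0.00188). Rhbdf1 had 2.89, 2.41 and 2.44, although anti-IgM lowered it in both genotypes, by 1.33 in IkL/L cells and by 0.85 in WT cells at 3 h. App, Cd36, Rasd1, Id2 and Bcl2l2 were also higher in each of the 3 conditions.

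Lif, by contrast, had differences of 0.79 without stimulus (limma adjusted p = 0.466), 3.69 at 3 h and 0.87 at 12 h (limma adjusted p = 0.456). In IkL/L cells its signal was 3.39 and 4.34 without stimulus, 6.49 and 6.78 at 3 h and 3.23 and 4.28 at 12 h, while each WT array was near background. The test of the difference between conditions was not past the threshold for Lif (limma adjusted p = 0.185 against no stimulus and 0.184 against 12 h).

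**Figure D5:**
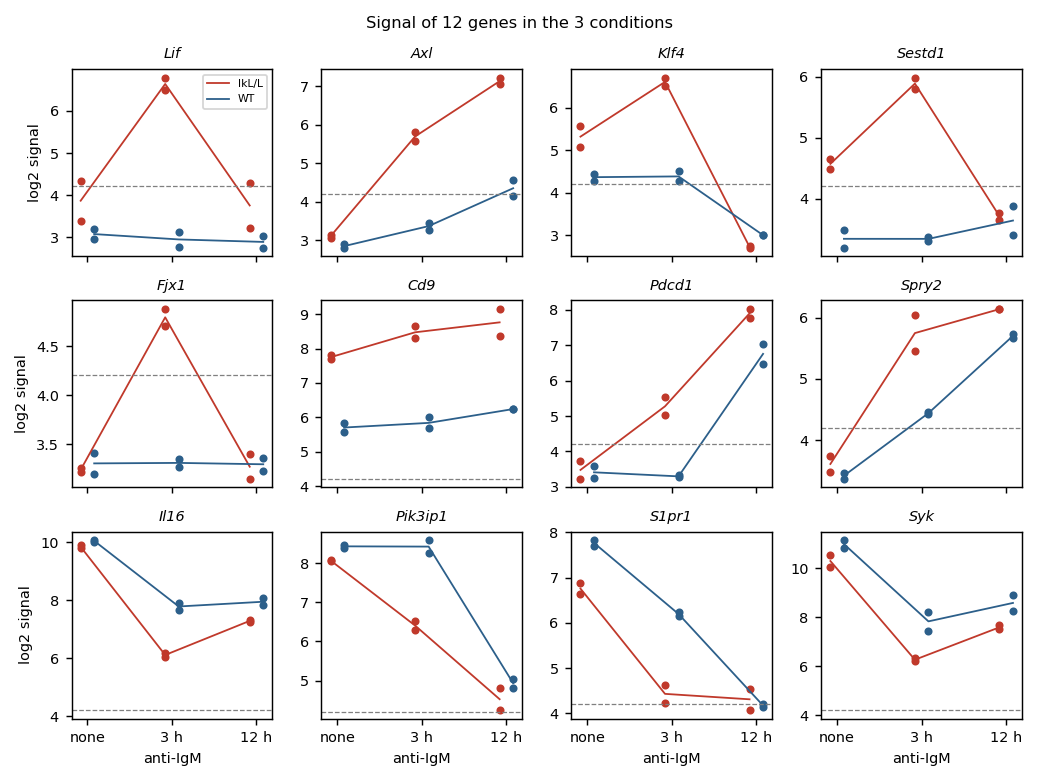
Log2 signal (vertical axes, each panel with its own range) of 12 genes without anti-IgM and after 3 h and 12 h of it, in IkL/L (red) and WT cells (blue). Points are arrays, lines join group means and the dashed line marks 4.21. Lif, Sestd1, Klf4 and Fjx1 peak at 3 h in IkL/L cells, whereas Cd9 is above WT in each condition.

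A test of the difference itself asked which genes had a genotype difference at 3 h unlike that without stimulus. It called 7 of 18193 genes (0.0385%), 5 with a higher (0.0275%) and 2 with a lower (0.0110%) difference at 3 h, and 1027 at an unadjusted p under 0.05 in limma. With single arrays left out between 0 and 2 genes were called, and 0 were called without any one of the 4 arrays at 3 h or either unstimulated WT array. Axl had 3.14 and 3.07 in unstimulated IkL/L cells and 2.81 and 2.89 in unstimulated WT cells, near background in both, so its difference at 3 h exceeded that without stimulus by 2.07 (SE 0.22, limma adjusted p = 0.0263). Il16 had 9.90 and 9.80 in unstimulated IkL/L cells and 10.08 and 10.03 in unstimulated WT cells, and its difference at 3 h was lower by 1.47 on the log2 scale than without stimulus (limma adjusted p = 0.0419).

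Fjx1, the four-jointed homologue, had 4.71 and 4.88 in IkL/L and 3.35 and 3.27 in WT cells at 3 h (1.48, SE 0.13, limma adjusted p = 0.00109). Without stimulus its values were near background in both genotypes, and the difference at 3 h exceeded that one by 1.55 (limma adjusted p = 0.0419). Tmem176b, a membrane protein, ran the other way: it was higher in IkL/L cells by 3.11 without stimulus and by 0.94 at 3 h. WT cells were near background for Tmem176b in both conditions, so both differences were measured against background. Rflnb had -2.05 without stimulus and -0.28 at 3 h, where it was near background in both genotypes.

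Against 12 h, 7 genes (0.0385%) had a difference at 3 h unlike that at 12 h, 3 higher (0.0165%) and 4 lower (0.0220%), with 1141 at an unadjusted p under 0.05 in limma. With single arrays left out, the set of genes called changed and never held all of these 7. The fewest were called without IkL/L replicate 1 at 3 h. Few were called without WT replicate 1 at 3 h or IkL/L replicate 2 at 12 h. Klf4 had 2.75 and 2.71 in IkL/L cells and 3.01 and 3.00 in WT cells at 12 h, so that its difference at 3 h exceeded that at 12 h by 2.50 (SE 0.23, limma adjusted p = 0.00767). Sestd1 had 3.77 and 3.66 in IkL/L cells and 3.88 and 3.40 in WT cells at 12 h, and its difference at 3 h exceeded that at 12 h by 2.47. At 12 h Klf4 and Sestd1 were near background in both genotypes, so a genotype difference there could have been missed.

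St6gal1, the sialyltransferase that makes the ligand of Cd22, was lower in IkL/L cells at 3 h and not at 12 h. It had 7.91 and 7.60 in IkL/L cells and 9.16 and 9.55 in WT cells at 3 h (-1.60, SE 0.18, limma adjusted p = 0.00365), and 10.79 and 10.59 in IkL/L cells and 10.11 and 10.52 in WT cells at 12 h. Ccl22, a chemokine for regulatory T cells, was the reverse case, with 4.06 and 4.30 in IkL/L and 4.01 and 3.77 in WT cells at 3 h but 6.54 and 6.82 in IkL/L and 3.90 and 3.65 in WT cells at 12 h. Spata13, a Rac and Cdc42 exchange factor, had -0.39 at 3 h and 1.33 at 12 h.

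How anti-IgM changed the same genes within each genotype is given side by side only, because these changes share the 3 h arrays with the genotype difference. Syk was lower after 3 h by 4.03 in IkL/L cells and by 3.16 in WT cells, and Rasa3 by 4.57 and 3.92. Cd79b fell by 3.44 in IkL/L cells and by 1.92 in WT cells, Il16 by 3.74 and 2.27 and S1pr1 by 2.33 and 1.57. Each of these 5 thus fell with anti-IgM in both genotypes.

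For other genes the change passed the threshold in IkL/L cells and not in WT cells. Pik3ip1 fell by 1.66 in IkL/L cells, where WT cells had a change of -0.01 (limma adjusted p = 0.991). Plac8 fell by 1.71 in IkL/L cells, where WT cells had -0.39 (limma adjusted p = 0.313). Spry2, by contrast, rose in both, by 2.13 in IkL/L and by 1.02 in WT cells. The test of the difference between these changes was not past the threshold for Pik3ip1, Plac8 or Spry2 (limma adjusted p = 0.136, 0.427 and 0.346).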

How the data were processed

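RNA of 12 samples was measured on an Affymetrix mouse 3' expression array. A 2-cycle labelling from 100 ng of RNA preceded hybridization, per the labels' protocols. The values the authors deposited are log2 signals. RMA made them, as stated without a version in the submitters' processing notes. RMA scales arrays to a common distribution, so a change shared by most genes would not be seen. Of 45037 probe sets, 34945 had 1 symbol, 932 several and 9160 were unlisted in the platform annotation, and the last 2 classes were left out of the comparison. The 18193 genes, 9010 with more than 1 probe set, took the probe set with the highest mean, and 18032 matched RefSeq by Entrez identifier.

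Groups and replicate numbers came from the sample titles. A limma fit with 6 group means covered the 12 arrays (limma 3.58.1, R 4.3.3), with empirical Bayes moderation (6 residual and 3.955 prior degrees of freedom) and Benjamini-Hochberg adjustment over all genes. Differences of differences came from the same fit. SE is the moderated standard error and intervals are at 95%. n = 2 arrays per group throughout, which limits the precision, and the p-values cover the spread of these arrays, which may in part be technical. The level of 4.21 is 1 above the highest array median (medians ran between 3.12 and 3.21). Because the file holds no background calls, a fold against an array under it used 4.21 as the value.

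Same-numbered arrays deviated together within WT (r from 0.546 to 0.619 over 6064 bright genes) and within IkL/L (0.354 to 0.49), so a block for replicate within genotype was also fitted. It leaves the difference between replicate numbers out of the error, and no label says that arrays of the same number share a source of cells.

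Genes were named by a rule: the 15 largest rises and the 15 largest falls among called genes with arrays that do not overlap and without clone names, up to 4 called members of each gene list, 12 fixed genes and the 3 largest of each direction of each difference of differences. The lists were written from general knowledge. The members, lists and rule were chosen with earlier results of these data known. The fit was tested on simulated data with independent noise on each array. It recovered 78 of 100 changes of 1 log2 unit and 95 of 100 changes of 2, with 9 false calls. Only genes with a mean signal above background were changed there. The simulation thus did not cover deviations shared by same-numbered arrays or genes near background.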

Additional observations from a re-analysis of the deposited data

Results flagged for a closer look

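Genes are given here whose IkL/L minus WT difference at 3 h passed limma's test against the difference in another condition. Against cells without stimulus the difference at 3 h was higher by 2.07 for Axl, 1.88 for C730049O14Rik, 1.76 for Rflnb, 1.55 for Fjx1 and 1.33 for Xcl1, a chemokine. It was lower for Tmem176b (-2.17) and Il16 (-1.47). Rflnb and C730049O14Rik were near background at 3 h in both genotypes, and Tmem176b was near background in WT cells with and without stimulus. C730049O14Rik had 4.45 and 4.01 in unstimulated IkL/L cells and 6.36 and 6.35 in unstimulated WT cells. Xcl1 had 4.72 and 4.93 in IkL/L cells and 3.47 and 3.37 in WT cells at 3 h, and was near background in the other groups.

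Against 12 h, the difference at 3 h was higher by 2.5 for Klf4, 2.47 for Sestd1 and 1.51 for Fjx1. It was lower for Ccl22 (-2.61), St6gal1 (-1.97), Spata13 (-1.72) and Tceal8 (-1.5). Klf4, Sestd1 and Fjx1 were near background at 12 h in both genotypes. Tceal8 had 5.27 and 5.24 in IkL/L cells and 2.96 and 3.09 in WT cells at 12 h, and was near background at 3 h in both genotypes.

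Probe sets without a single gene symbol were outside the comparison. Of 10092 such probe sets, 59 differed at 3 h (0.585%, limma fitted on all 45037 probe sets), 44 higher and 15 lower in IkL/L cells, and 52 of the 59 were above 4.21 in a group.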

How the results depend on the processing

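The 310 genes called at 3 h became 572 (271 higher, 301 lower) with a replicate block shared by both genotypes, 935 (471, 464) with a replicate block within genotype, 128 (58, 70) with only the arrays compared and 119 (50, 69) with housekeeping scaling. With single arrays left out it was 33 to 327 (20 to 156 higher, 13 to 171 lower), and with a replicate left out in all conditions 109 (51, 58) for WT replicate 1, 17 (10, 7) for WT replicate 2, 168 (101, 67) for IkL/L replicate 1 and 40 (23, 17) for IkL/L replicate 2. The 7 genes differing from the unstimulated contrast became 11, 27, 2 and 1 under those 4 settings, 2 with the mean of all probe sets or with the dimmest genes removed (12130 kept), 0 with each probe set on its own and 0 to 2 with arrays left out. The 7 differing from the 12 h contrast became 14, 21, 3 and 3, 16 with the source of the cells as a random block, and 0 to 9 with arrays left out. The random block, which took arrays of the same genotype and replicate number as sharing a source, and the removal of X and Y genes (299 called) were chosen after seeing the data. The differences between replicate 1 and replicate 2 correlated weakly across genotypes, with r from 0.0263 to 0.31, 8 of 9 pairs of groups over 0.1. Blocks shared by both genotypes and within genotype were both fitted. Of the 62 named calls, 0 reversed in the 27 settings with 1 value per gene, and between 7 and 62 were kept. The cause was not tested for any of these changes. Values that reversed were those of single other probe sets, most near background: App -0.113 and -0.0304, Arhgef18 0.0524, Axl -0.0186, Bcl2l2 -0.19, Bmf 0.0518, Cd93 0.0531, Cdkn1b 0.104, Dusp10 -0.171, Errfi1 -0.114, Fcgr2b 0.0335, Fjx1 -0.0755, Ikzf3 -0.156, Il16 0.107, Itga4 0.0616 and 0.0257, Lmna -0.0729, -0.205 and -0.0392, Ms4a6c 2.03, Spata13 0.0298, Tgfbr2 0.0175, Tnfrsf21 -0.22 and Trim59 0.122. Among genes not past the threshold, the difference of Cd69 lay between -0.607 and 0.245 with single arrays left out, and that of Cd86 between -0.0345 and 0.464, each at its positive or negative end without WT replicate 1 (0.245) or IkL/L replicate 2 (-0.0345), also when left out in all conditions. Ikzf3 was -0.0127 with the mean of all probe sets, -0.00078 with housekeeping scaling and -0.212 to 0.298 with single arrays left out. Myc was -0.0348 with housekeeping scaling, -0.217 to 0.234 with single arrays left out and -0.0809 without IkL/L replicate 2. With array medians of 3.12 to 3.21, differences of genes near background are limited by signal.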

Other observations

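Ms4a6c has 2 probe sets that disagree at 3 h. The brighter one averaged 7.20 in IkL/L and 9.66 in WT cells (-2.46), and the other 7.11 in IkL/L and 5.08 in WT cells (2.03, limma adjusted p = 0.00943 with each probe set tested on its own). Of the 62 named genes past the threshold, 24 had another probe set above 4.21, with 30 such probe sets in all. By sign alone, 29 of the 30 had the direction reported, and Ms4a6c was the exception. Some of the 29 differed little between genotypes, as for Pik3cd (-0.07 against -1.88 reported), Bmf (-0.085 against -1.68) and Arhgef18 (-0.21 against -2.12). A further Samhd1 probe set had -0.31 against -2.20. Others lay near the reported value, such as that of Pik3ip1 (-1.74 against -2.02).

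Among genes outside the naming rule, chosen after their values were seen, several kept their call with every single array left out. Abcb1b, a drug efflux pump, had 5.90 and 5.65 in IkL/L cells and 3.92 and 3.86 in WT cells (1.89). Airn, the long noncoding RNA antisense to the imprinted gene Igf2r, had 6.70 and 6.50 in IkL/L cells and 4.88 and 4.88 in WT cells (1.72). Airn did not differ past the threshold in the other 2 conditions (0.21 without stimulus and 0.37 at 12 h). Its difference at 3 h was not past the threshold in the test against either of them.

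Lower in IkL/L cells in the same way were Trp53inp1, a stress protein induced by p53, Tbc1d10c, an inhibitor of Ras and calcineurin signalling, and Mpp1, a membrane scaffold. Trp53inp1 had 7.63 and 7.51 in IkL/L cells and 8.86 and 9.06 in WT cells (-1.39). Tbc1d10c had 4.95 and 4.74 in IkL/L cells and 6.39 and 6.77 in WT cells (-1.73). Mpp1 had 6.47 and 6.48 in IkL/L cells and 7.76 and 7.77 in WT cells (-1.29).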
